A study of Mus musculus with 3 samples.

Results

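The genes described here are 39 genes of meiosis and of the testis germline, compared between day 10 mouse embryoid bodies of a Dido3 mutant and of the wild type. They are a list of gene names drawn up with earlier results of these data known. Every probe whose gene name in the scanner files equals one of them was taken, which gave 52 probes of 39 genes among 30458 gene names on the array. Of the 39, 33 had a probe bright enough to be tested, among 15427 tested genes, and the other 6 (Sycp2, Spo11, Msh4, Nanos2, Pgk2 and Dpep3) did not.

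The mutant cells were Dido3deltaCT, whose Dido3 protein lacks its C-terminal part, and the reference was labelled wildtype control. Both were grown as embryoid bodies, aggregates of embryonic stem cells in suspension, for 10 days in low attachment plates without the self-renewal factor LIF. There were 3 mutant and 3 wild type samples, labelled biological replicates, hybridised in pairs on 3 two-colour arrays of 1 slide. Mutant RNA was labelled with Cy3 for replicates 1 and 3, and with Cy5 for replicate 2. The labels do not say whether replicates come from separate lines or from repeat cultures of 1 line, so p-values may measure technical spread alone, and an effect of the genotype and any other difference of the lines cannot be told apart.

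In meiosis, cohesin complexes with germline subunits build a chromosome axis, HORMA-domain proteins coat that axis, and the synaptonemal complex zips homologous chromosomes together while programmed DNA breaks are repaired as crossovers. Testis germ cells also use their own versions of housekeeping proteins, among them a cytochrome c, an ADP/ATP carrier, a lactate dehydrogenase, an alpha-tubulin and a ribosomal protein. Many of these genes are kept silent in somatic cells by promoter DNA methylation and by repressor complexes with E2F6 and PCGF6, and some of them, such as Dazl and Tex19.1, are also transcribed in embryonic stem cells.

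The share of spots that the scanner software flags as well above background ran from 46.5% to 62.5% over mutant samples and from 48.5% to 74.4% over wild type samples. The 4 probes of Dido1, the targeted gene, had log2 ratios from −1.92 to 1.74, and where the truncation begins is not given, so they do not check the genotype. The Y-linked genes Ddx3y and Eif2s3y were lower in the mutant samples, Ddx3y at least 21.3-fold because no mutant array had it above background, and Eif2s3y with a ratio of −6.17 ± 0.36 (SE). The genotypes thus differ in Y-linked signal as well as in Dido3, and these cannot be told apart for any gene, X-linked ones included. A log2 ratio is the log2 of mutant over wild type intensity on 1 array, a log2 intensity is the level of 1 sample after normalization, and a bound sets the brighter genotype against the lowest signal called well above background. Ratio correlations over genes, which are not independent replicates, were 0.88 for replicates 1 and 3, 0.15 for 1 and 2, and 0.18 for 2 and 3. Replicate 2 differs from the others in dye orientation and in its cultures, which cannot be told apart.

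Of the 33 tested germline genes 3 rose in the mutant (Cyct, Tuba3a and Syce1) and 0 fell, by limma with Benjamini-Hochberg adjustment over all genes at a threshold of 0.05. Over all tested genes 0.207% were called higher and 0.0907% lower. In these bulk samples fewer cells of a type and less RNA per cell cannot be told apart. Of 13 pluripotency markers, given after the germline genes, 4 rose in the same samples, with a median ratio of 2.17 over the 13. A further 11 of the 33 had an adjusted p between 0.05 and 0.1, which makes 14 higher under 0.1, against 4.23% of all tested genes. At the same time 26 of the 33 had an unadjusted p under 0.05 (all of them with a positive ratio), against 22.7% of all tested genes in either direction. The median of the mean ratios was 1.66 over the 33, with array medians of 1.91, 0.95 and 1.98, and 0.03 over all tested genes. Ratios lay above 0 on all 3 arrays for 29 of the 33 and for 21.7% of all genes, and a mean ratio of 1 or more was found for 21 of the 33 and for 9.55% of all genes. A mean ratio of −1 or less was found for 0 of the 33 and for 7.12% of all genes. These counts are a description, since the list was drawn up with results of these data known. In addition, 6 of the 33 (Tex11, Slc25a31, Sycp1, Ldhc, Hormad2 and Tex12) passed the filter on dim probes through the mutant samples alone. Such a pass favours a positive ratio, while Dnd1 passed through the wild type alone. Among the 26 genes well above background in both genotypes on every array, 24 had ratios above 0 on all 3 arrays and the median was 1.76. Without the filter, 34 of the 39 had a mean ratio above 0, 21 had 1 or more, and the median was 1.12.

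**Figure D1:**
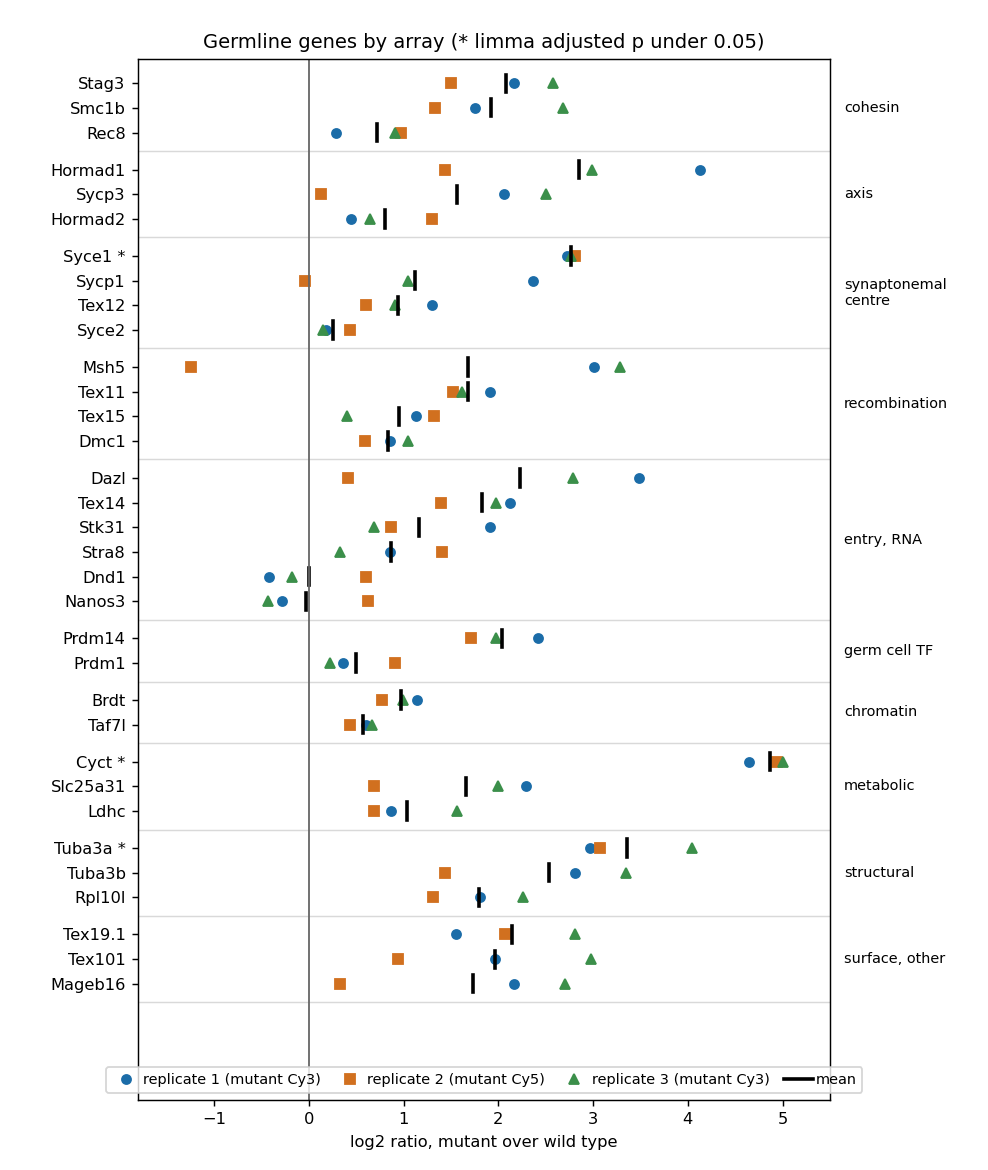
Log2 ratios of mutant over wild type for the 33 tested germline genes, grouped by role, with a symbol for each array and a bar at the mean. The 3 called genes carry an asterisk, and Msh5, Dazl, Sycp3 and Mageb16 have their lowest ratio on replicate 2.

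The largest ratio of the list belonged to Cyct, the testis form of cytochrome c, the electron carrier of the respiratory chain. Its log2 intensity was 13.87, 13.29 and 13.69 in mutant replicates 1, 2 and 3, against 9.22, 8.34 and 8.69 in the wild type. The groups did not overlap and lay more than 4 log2 units apart on each array. The ratio was 4.87 ± 0.24 (limma SE, n = 3 arrays, adjusted p = 0.0195), a 29.2-fold higher mean in the mutant. The single probe of Cyct lies at chr2:76192113-76192172 of mm9, minus strand. Cyct was called under 11 of 14 alternatives. It was not called with every spot in the background model (adjusted p = 0.138), with dim probes kept (adjusted p = 0.0520) or in the authors' deposited values (adjusted p = 0.119), and its limma adjusted p ran from 0.000742 to 0.138 over alternatives.

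Tuba3a, an alpha-tubulin of the testis, was read by 2 probes at chr6:125228298-125228366 of mm9, minus strand, which share 51 of their 60 bases and are not independent. At the brighter probe the log2 intensity was 12.69, 13.05 and 13.48 in mutant samples, against 9.72, 9.97 and 9.44 in wild type samples. All 3 mutant samples were brighter than all 3 wild type samples. The ratio was 3.36 ± 0.32 (limma SE, n = 3 arrays, adjusted p = 0.0432), or 10.3-fold, and the other probe had a mean of 3.54 ± 0.73 (SD, n = 3).

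Syce1 encodes a protein of the central element of the synaptonemal complex, and its probe lies at chr7:147963253-147963312 of mm9, minus strand. Its log2 intensity was 11.49, 11.39 and 11.44 in mutant samples and 8.77, 8.58 and 8.68 in wild type samples. These were the most even of the 3 called genes, with ratios of 2.73, 2.81 and 2.76. The mean was 2.76 ± 0.23 (limma SE, n = 3 arrays, adjusted p = 0.0416), or 6.80-fold, while the SD over the arrays was 0.04. Tuba3a and Syce1 were each called under 7 of the 14 alternatives. Both lost the call with median centring in place of loess (adjusted p = 0.0503 each), with replicate 1 left out (adjusted p = 0.0887 for Tuba3a and 0.118 for Syce1) and with replicate 3 left out (adjusted p = 0.0781 for Tuba3a and 0.0961 for Syce1), besides the 3 alternatives that ended the call of Cyct and the stricter filter. Their adjusted p ran from 0.00162 to 0.144 for Tuba3a and from 0.00117 to 0.341 for Syce1. With every spot in the background model, 7 spots of extreme local background on replicate 3 included, and in the authors' deposited values, 0 of the 33 genes were called, with 14 and 22 at an unadjusted limma p under 0.05.

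**Figure D2:**
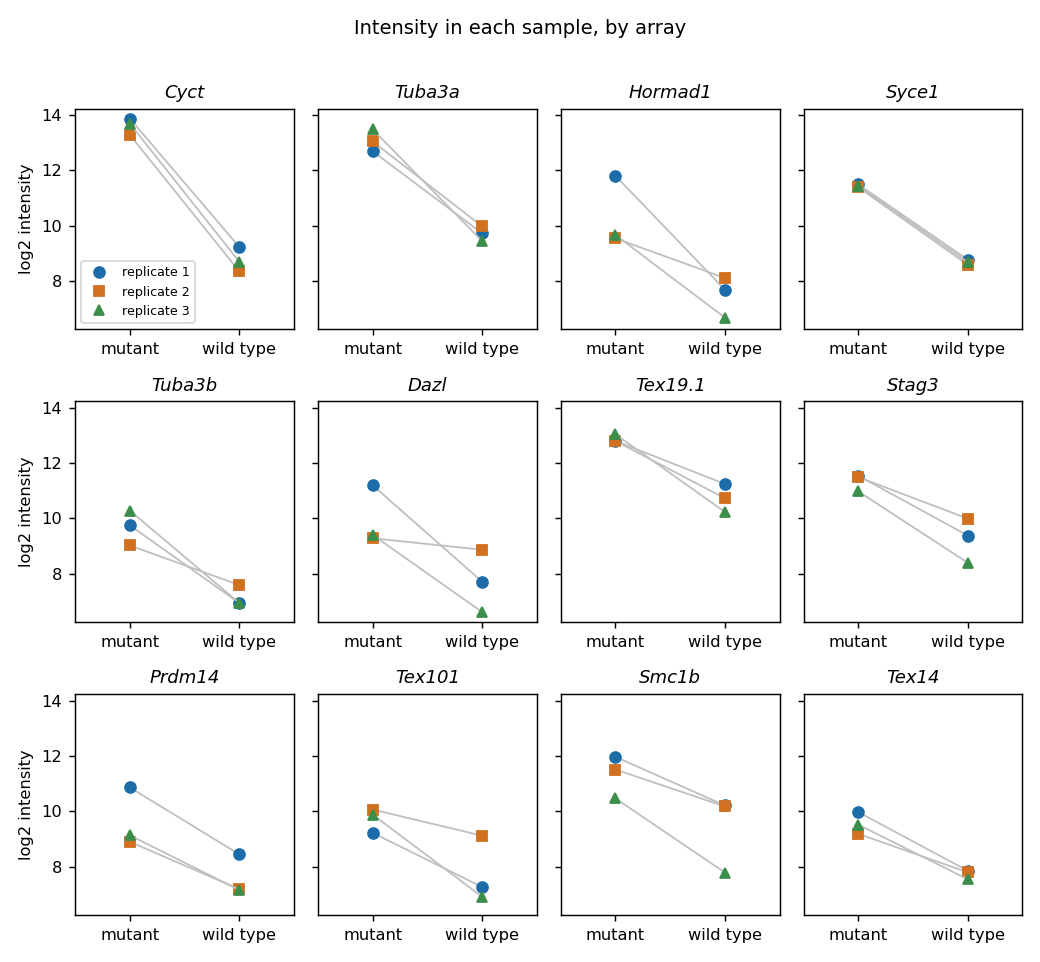
Log2 intensity of the 12 tested germline genes with the largest mean ratios, in the mutant sample (left) and the wild type sample (right) of each array, joined by a line. All 12 have 3 lines falling from mutant to wild type, and the line of Dazl on replicate 2 is nearly flat.

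Promoters of these genes are shown because germline promoters are known to be controlled through CpG methylation and through E2F6, whose family binds the letters TCCCGC, and through E-boxes with the letters CACGTG, which the MAX and MGA partners of the PCGF6 complex bind. The windows run from 250 bases before to 50 bases after the annotated start, from RefSeq on GRCm38.p6, written 5′ to 3′ on the gene's strand. Capitals mark TCCCGC or its reverse complement GCGGGA, and CACGTG, which is its own reverse complement. The 2 motifs do not overlap in these windows. The first 4 are the called genes and Tuba3b, the near copy of Tuba3a, and the last 2 are genes of the chromosome axis and of cohesin that hold both motifs.
Cyct, chr2:76360404-76360703, minus strand: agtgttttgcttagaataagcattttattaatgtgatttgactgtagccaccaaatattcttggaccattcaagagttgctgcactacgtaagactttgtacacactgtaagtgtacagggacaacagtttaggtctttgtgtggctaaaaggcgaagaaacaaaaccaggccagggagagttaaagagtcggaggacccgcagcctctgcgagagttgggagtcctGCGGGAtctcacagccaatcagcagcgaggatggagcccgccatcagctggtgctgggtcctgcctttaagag
Tuba3a, chr6:125286032-125286331, minus strand: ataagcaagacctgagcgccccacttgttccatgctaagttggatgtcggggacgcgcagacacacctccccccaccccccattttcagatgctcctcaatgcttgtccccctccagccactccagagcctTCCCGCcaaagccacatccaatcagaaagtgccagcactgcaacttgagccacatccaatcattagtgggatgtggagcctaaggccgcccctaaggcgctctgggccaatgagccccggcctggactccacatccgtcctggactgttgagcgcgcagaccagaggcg
Tuba3b, chr6:145615713-145616012, plus strand: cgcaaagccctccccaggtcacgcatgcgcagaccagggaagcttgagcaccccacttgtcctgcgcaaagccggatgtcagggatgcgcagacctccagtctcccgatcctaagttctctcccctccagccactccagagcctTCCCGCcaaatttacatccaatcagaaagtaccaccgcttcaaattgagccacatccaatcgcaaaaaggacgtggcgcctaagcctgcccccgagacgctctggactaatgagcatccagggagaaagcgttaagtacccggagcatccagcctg
Syce1, chr7:140787805-140788104, minus strand: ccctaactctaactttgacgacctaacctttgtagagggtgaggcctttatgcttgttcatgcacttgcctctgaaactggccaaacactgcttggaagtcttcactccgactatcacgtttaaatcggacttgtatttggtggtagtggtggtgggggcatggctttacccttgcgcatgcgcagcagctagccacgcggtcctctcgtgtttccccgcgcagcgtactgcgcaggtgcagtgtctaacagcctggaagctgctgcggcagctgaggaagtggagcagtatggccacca
Hormad1, chr3:95559427-95559726, plus strand: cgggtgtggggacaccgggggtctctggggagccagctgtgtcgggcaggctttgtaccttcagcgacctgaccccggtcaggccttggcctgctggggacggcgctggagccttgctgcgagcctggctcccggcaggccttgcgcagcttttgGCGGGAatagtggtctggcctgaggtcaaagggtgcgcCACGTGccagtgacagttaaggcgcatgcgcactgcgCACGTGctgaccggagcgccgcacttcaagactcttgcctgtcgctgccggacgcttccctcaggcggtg
Stag3, chr5:138280259-138280558, plus strand: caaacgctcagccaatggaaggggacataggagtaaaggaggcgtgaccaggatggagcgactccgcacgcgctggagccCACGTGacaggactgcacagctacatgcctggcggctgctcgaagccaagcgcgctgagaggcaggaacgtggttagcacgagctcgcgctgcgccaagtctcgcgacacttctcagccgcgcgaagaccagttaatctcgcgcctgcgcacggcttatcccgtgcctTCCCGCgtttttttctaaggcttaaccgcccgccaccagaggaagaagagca

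Cyct and both tubulin genes held 1 TCCCGC match each and no CACGTG, and Syce1 held neither. Of the 39 genes 34 had a window in the reference table. In the first listed window of each gene, TCCCGC was found in 17 of the 34, against 20% of all 27025 genes in the table, and CACGTG in 9 of 34 (26.5%), against 7.24%. Both motifs were found in 6 of 34 (17.6%), against 2.05%: Slc25a31, Hormad1, Sycp1, Stag3, Tex12 and Sycp3. Of these 6, Slc25a31, Sycp1 and Tex12 were bright enough to be tested through the mutant samples alone. Tested genes have CpG-rich promoters in general, so the closer background is the 10031 tested genes with a window. Among these TCCCGC was found in 35.1%, CACGTG in 10.1% and both in 3.94%, against 58.6%, 31.0% and 20.7% of the 29 tested germline genes with a window. CpG observed over expected had a median of 0.70 in those 29 and 0.75 in the tested genes. Across the 29 it did not track the mean ratio (Pearson r = −0.04 and Spearman rho = −0.04, a description over genes that share the 3 arrays). A match is a run of letters and was not shown to be bound, and an empty window says nothing of the factor.

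**Figure D3:**
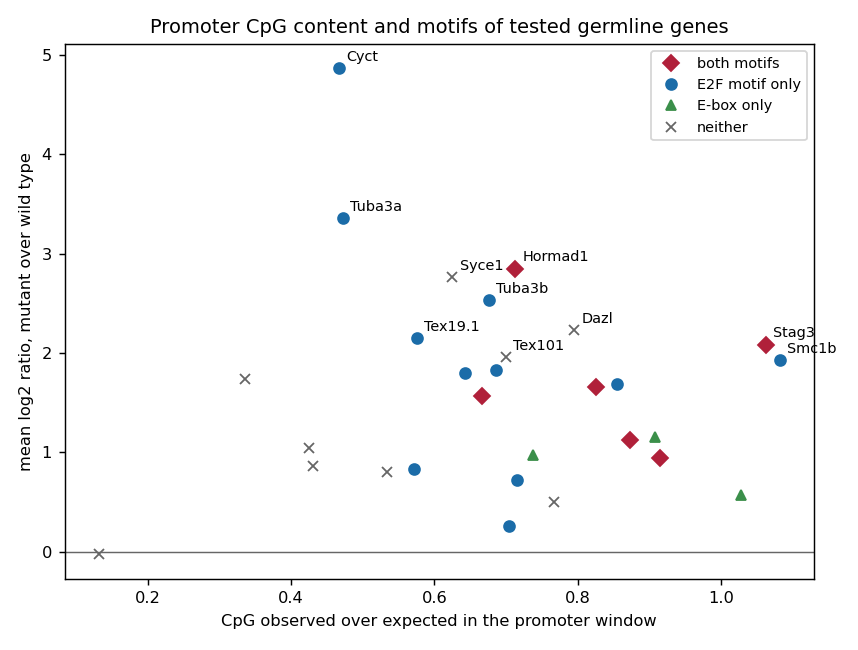
CpG observed over expected in the promoter window (x axis) against the mean log2 ratio of mutant over wild type (y axis) for the 29 tested germline genes with a window, with symbols for the motifs found. Cyct and Tuba3a stand highest at 0.47, and the 6 genes with both motifs lie between 0.67 and 1.06 on the x axis.

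Among the meiotic cohesin subunits, Stag3 and Smc1b had mean ratios near 2. Stag3, the germline STAG subunit, had log2 intensities of 11.55, 11.50 and 10.98 in mutant samples, against 9.38, 9.99 and 8.40 in the wild type, with no overlap and a ratio of 2.08 ± 0.30 (limma SE, adjusted p = 0.0558). Smc1b, the germline form of the SMC1 ATPase, had 11.97, 11.51 and 10.47 in mutant samples, against 10.21, 10.18 and 7.78 in the wild type. Its lowest mutant sample, on replicate 3, lay just above the highest wild type sample, and the ratio was 1.93 ± 0.34 (limma SE, adjusted p = 0.0676). Rec8, the meiotic kleisin that holds sister chromatids until the second division, had ratios of 0.29, 0.98 and 0.91, with a mean of 0.72 (limma adjusted p = 0.204).

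Of the axis genes, Hormad1, a HORMA-domain protein of unsynapsed chromosomes, had log2 intensities of 11.80, 9.54 and 9.66 in mutant samples and 7.68, 8.10 and 6.67 in the wild type. The groups did not overlap, but the ratio was 4.12, 1.43 and 2.99 on the 3 arrays, so that its mean of 2.85 ± 0.54 (limma SE) missed the threshold (adjusted p = 0.0719). A second probe, whose position overlaps the first, gave 2.80 ± 1.55 (SD, n = 3). Hormad2, its relative, had a mean ratio of 0.80, highest on replicate 2 (1.30), and 2 wild type arrays on which it passed the background flag. Sycp3, a filament protein of the lateral element, had 12.52, 12.08 and 11.20 in mutant samples, against 10.46, 11.95 and 8.70 in the wild type. Its wild type sample of replicate 2 lay within the mutant range, and the ratio of 1.56 ± 0.51 (limma SE) had an adjusted p of 0.168. The other Sycp3 probe had ratios of 3.25, −1.27 and 4.23. Sycp2, the partner of Sycp3 in the lateral element, was not well above background in any sample.

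In the centre of the synaptonemal complex the remaining genes of the list had lower mean ratios than Syce1. Sycp1, the transverse filament protein that bridges the homologues, had ratios of 2.37, −0.04 and 1.05 (mean 1.12, limma adjusted p = 0.261) and 1 wild type array on which it was well above background. Tex12, a partner of Syce2 in the central element, had a mean of 0.94 (limma adjusted p = 0.130) and was also above background on 1 wild type array. Syce2 had 0.26 ± 0.24 (limma SE, adjusted p = 0.564), with intensities of 11.95, 12.30 and 12.55 in mutant samples, against 11.77, 11.87 and 12.40 in the wild type, which overlapped, and its ratio was −0.05 with median centring. Syce1 thus lay above Sycp1, Tex12 and Syce2 on each array, a difference that was not tested. Syce3, a central element gene outside this list that is given below, had a mean ratio of 2.05.

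Of the recombination genes, Spo11, which makes the programmed breaks, was not well above background in any sample, and neither probe of Msh4 passed the filter. Tex11, an X-linked gene needed for crossovers, had ratios of 1.91, 1.52 and 1.62 and a mean of 1.68 ± 0.24 (limma SE, adjusted p = 0.0558), with 2 of 3 wild type arrays above background. Its second probe averaged 0.85 ± 0.66 (SD, n = 3). Msh5, which works with Msh4 at crossovers, had ratios of 3.01, −1.24 and 3.29, the widest spread of the tested genes, and its second probe was dim with a mean of 0.22. Dmc1, the meiotic strand-exchange protein, had 0.83 ± 0.24 (limma SE, adjusted p = 0.143). Tex15, which is needed for break repair in spermatocytes, had 0.95 ± 0.29 (limma SE, adjusted p = 0.150). Further probes of both genes were too dim to test, with means of 0.38 and 0.14 for Dmc1 and 0.05 for Tex15.

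Genes of meiotic entry and of germ cell RNA control did not move as 1 group. Dazl, an RNA-binding protein that licenses germ cells for meiosis, had log2 intensities of 11.20, 9.28 and 9.41 in mutant samples and 7.71, 8.87 and 6.61 in the wild type. The groups did not overlap, yet the ratio on replicate 2 was 0.42 against 3.49 and 2.79 on replicates 1 and 3, and the mean was 2.23 ± 0.63 (limma SE, adjusted p = 0.132). Tex14, a protein of the bridges between germ cells, had 9.97, 9.18 and 9.52 in mutant samples, against 7.85, 7.79 and 7.54 in the wild type, with no overlap and a ratio of 1.83 ± 0.27 (limma SE, adjusted p = 0.0562). Stk31, a germ cell protein with a Tudor domain, had a mean of 1.16, and Stra8, the retinoic acid-induced gene of meiotic entry, had 0.86, 1.41 and 0.33 (mean 0.87, limma adjusted p = 0.186). Nanos3 and Dnd1, RNA regulators that keep early germ cells alive, had means of −0.03 and 0.00, positive on replicate 2 alone, and the sign of both changed with processing. Nanos2, which acts in male fetal germ cells, was well above background on 1 wild type array and 0 mutant arrays.

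Of the factors that specify primordial germ cells, Prdm14, which stem cells also use, had log2 intensities of 10.86, 8.90 and 9.13 in mutant samples and 8.44, 7.18 and 7.15 in the wild type. The groups did not overlap and the ratio was 2.04 ± 0.26 (limma SE, adjusted p = 0.0543). Prdm1, its partner in that role, had a mean ratio of 0.50 (limma adjusted p = 0.338) with overlapping groups. Brdt and Taf7l, testis forms of a BET bromodomain protein and of a TFIID subunit, had means of 0.97 and 0.57 (limma adjusted p of 0.109 and 0.238), and a second Brdt probe had −0.29 ± 0.30 (SD, n = 3).

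The other tested testis isoforms were not called by limma. Slc25a31, the germline ADP/ATP carrier, had ratios of 2.30, 0.69 and 2.00 (mean 1.66, limma adjusted p = 0.0987) and Ldhc, the sperm lactate dehydrogenase, 0.87, 0.68 and 1.57 (mean 1.04, limma adjusted p = 0.126), both with 2 of 3 wild type arrays above background. A second Ldhc probe was too dim to test, with a mean of 0.33. Pgk2, the testis phosphoglycerate kinase, was above background on 1 array of each genotype. Tuba3b had log2 intensities of 9.75, 9.02 and 10.28 in mutant samples, against 6.94, 7.59 and 6.94 in the wild type, a ratio of 2.53 ± 0.43 (limma SE, adjusted p = 0.0625). Its probe and the brighter Tuba3a probe matched at 40 of 47 overlapping bases and shared the run cttccccaccattggaaataaaggatat, so that their signals cannot be told apart with certainty. Rpl10l, the intronless copy of a ribosomal protein gene, had 1.81, 1.31 and 2.26 (mean 1.79, limma adjusted p = 0.0600), and its second probe 1.22 ± 0.71 (SD, n = 3).

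Among the remaining genes, Tex19.1, which restrains retrotransposons in germ cells and is active in stem cells, had log2 intensities of 12.80, 12.80 and 13.05 in mutant samples and 11.25, 10.73 and 10.23 in the wild type. The groups did not overlap, with a ratio of 2.15 ± 0.33 (limma SE, adjusted p = 0.0580). Tex101, a germ cell surface protein, had 9.22, 10.06 and 9.88 in mutant samples, against 7.26, 9.12 and 6.91 in the wild type. The lowest mutant sample lay just above the wild type sample of replicate 2, and the ratio was 1.96 ± 0.43 (limma SE, adjusted p = 0.0900). The X-linked Mageb16 had 2.17, 0.33 and 2.70 (mean 1.73, limma adjusted p = 0.141), and its other probe 1.01 ± 0.61 (SD, n = 3). The other X-linked genes were Tex11 and Taf7l, and the 39 genes lay on 16 chromosomes. Dpep3, a membrane dipeptidase of the testis, was above background on 1 mutant array. In all, the mutant samples lay above the wild type samples without overlap for 23 of the 33 tested genes. They lay below for 0, against 11% and 10.4% of all tested genes. Among the 23, Hormad2, Ldhc, Slc25a31, Tex11 and Tex12 passed the filter on dim probes through the mutant samples alone, which favours such a separation. These counts are a description, since the list was drawn up with results of these data known.

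Replicate 2 gave the lowest of the 3 ratios for 20 of the 33 genes and the highest for 9. Replicates 1 and 3 were both above 0 for 31 of the 33, and replicate 2 was below 0 for 2 of them, Msh5 and Sycp1. Cyct, Tuba3a, Syce1 and Tex19.1 had similar ratios in both dye orientations, while Msh5, Dazl, Sycp3 and Mageb16 had −1.24, 0.42, 0.13 and 0.33 on replicate 2. Over the 33 genes correlations of the ratios were 0.87 for replicates 1 and 3, 0.40 for 1 and 2, and 0.48 for 2 and 3, as a description over genes that share the arrays. Left out, replicate 2 took the count of called germline genes to 26, against 1 without replicate 1 and 1 without replicate 3 (Cyct both times). The fit without replicate 2 rests on 2 arrays of 1 dye orientation, in which genotype and dye cannot be told apart, and 7300 of all genes were called there.

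**Figure D4:**
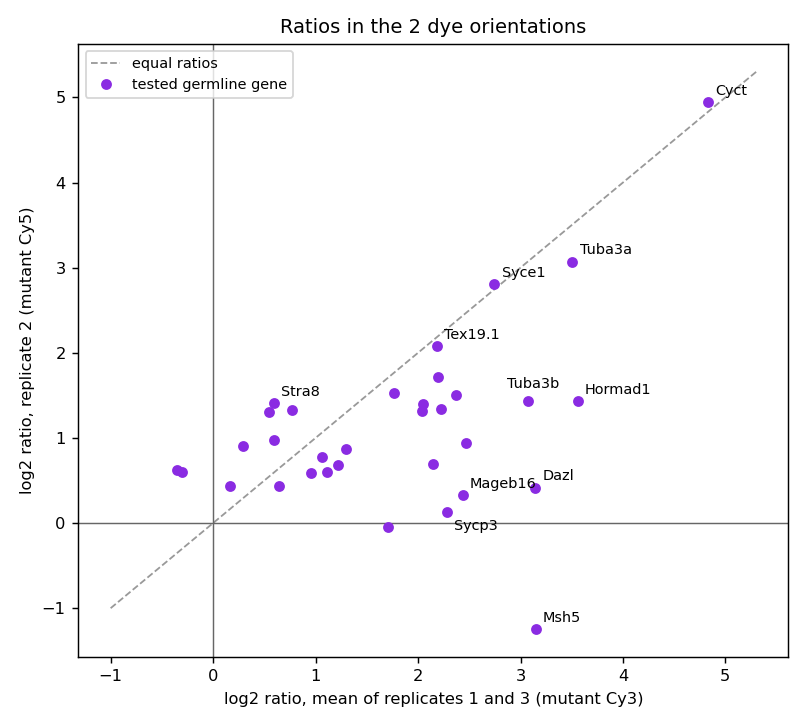
Mean log2 ratio of replicates 1 and 3 (mutant in Cy3, x axis) against the ratio of replicate 2 (mutant in Cy5, y axis) for the 33 tested germline genes, with a dashed line of equal ratios. Cyct and Syce1 lie on the line, and Msh5 lies at −1.24 on replicate 2.

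Somatic paralogues were set beside the germline isoforms as a description. The germline genes were chosen with results of these data known, which favours higher ratios on their side. The pairs therefore cannot show whether a ratio belongs to the protein family or to its germline gene. For Cyct the somatic gene is Cycs, with ratios of 1.08, −0.66 and 0.97. The Cyct ratio exceeded it by 4.40 ± 1.07 (SD, n = 3 arrays). Tuba1a, Tuba1b and Tuba1c, alpha-tubulins of many tissues, averaged −1.18, 0.01 and 0.57, and Tuba3a exceeded them by 4.54 ± 1.12, 3.35 ± 2.05 and 2.79 ± 0.27 (SD, n = 3). Rpl10 averaged −0.08, and Rpl10l exceeded it by 1.87 ± 0.47 (SD, n = 3). Among cohesin genes, Stag1 and Stag2 averaged 0.34 and −0.58, Smc1a −0.36 and Rad21 0.14, and the differences of the germline subunits were 1.74 ± 0.93 and 2.66 ± 0.61 for Stag3, 2.29 ± 1.73 for Smc1b and 0.59 ± 0.22 for Rec8 (SD, n = 3).

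The pattern did not hold for every pair. Ldhc had a smaller ratio than Ldhb, a somatic lactate dehydrogenase, on every array (1.04 ± 0.47 for Ldhc, against 1.57 ± 0.17 for Ldhb, SD, n = 3), while Ldha averaged −0.16. Slc25a5 and Slc25a4, the common ADP/ATP carriers, averaged 1.17 and −0.48. Brd2 and Brd3, somatic BET proteins beside Brdt, averaged −0.30 and −0.02, Taf7 averaged −0.39 and Pgk1 averaged −0.40. In all, 16 pairs of 10 germline and 16 somatic genes were tested on both sides, the germline ratio was the higher on all 3 arrays in 13, and the somatic genes had a median of −0.05 and a lowest limma adjusted p of 0.0580, for Ldhb. Of these pairs 2 hold Slc25a31 and 2 hold Ldhc, which passed the filter through the mutant samples alone, and such a pass favours a positive ratio. The differences themselves were not tested.

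**Figure D5:**
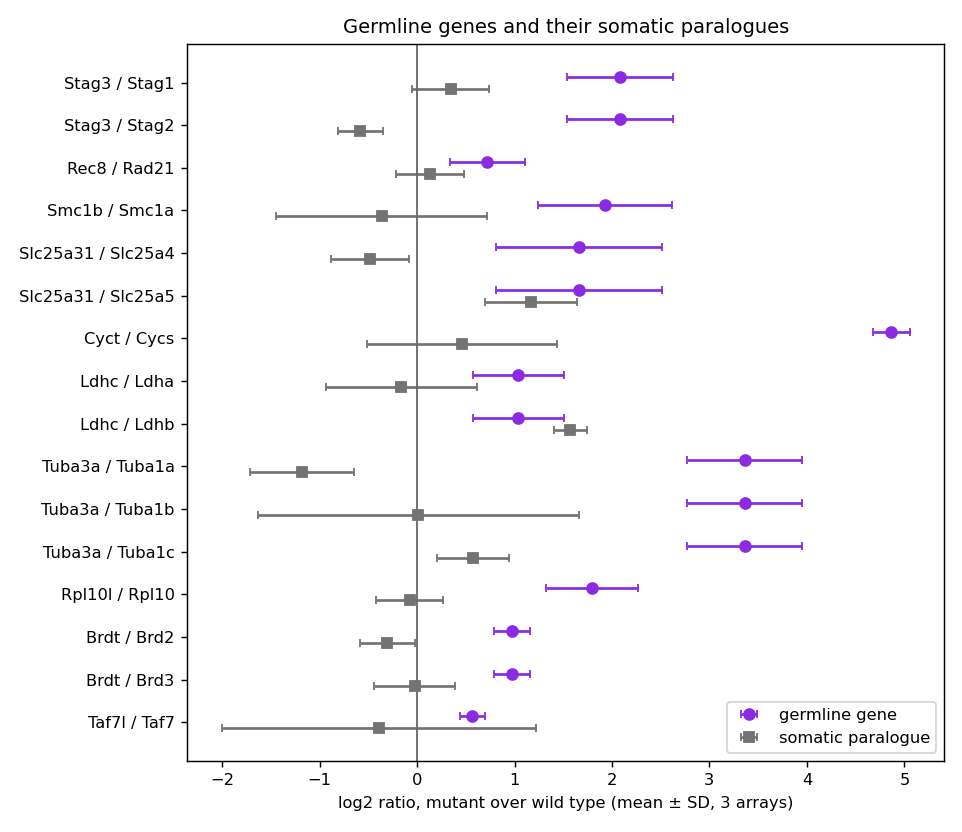
Mean log2 ratios (x axis, mutant over wild type) and SD over 3 arrays, for each germline gene (purple circle, upper) and its somatic paralogue (grey square, lower). The germline circle lies right of the grey square in 15 of the 16 pairs, the exception being Ldhc with Ldhb.

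Other genes of the same programmes were taken from lists by known function. Of 27 further meiosis genes listed, 24 were on the array under these names and 15 were tested. By limma 0 of the 15 were called in either direction. There were 4 at an unadjusted p under 0.05, all positive, a share near the 22.7% of all tested genes in either direction. The mean ratio lay above 0 for 13 of the 15, against 52.4% of all tested genes, and the median ratio was 0.53. Syce3, another central element gene, had the largest at 2.05 ± 0.31 (limma SE, adjusted p = 0.0573), followed by Meioc, which holds germ cells in meiotic prophase, at 1.87 ± 0.32 (adjusted p = 0.0638), and Rec114, of the break-forming machinery, at 1.52 ± 0.30 (adjusted p = 0.0757). Prdm9, which sets the sites of the breaks, had ratios of 1.09, −1.64 and 1.13. Of 8 tested spermatogonial genes 0 were called by limma. There were 2 higher and 1 lower at an unadjusted p under 0.05, against 22.7% of all tested genes in either direction. The transcription factor gene Sohlh2 had 1.75 ± 0.24 (limma SE, adjusted p = 0.0558), the germ cell helicase gene Ddx4 2.02 ± 0.44 (adjusted p = 0.0859) and Zbtb16, a stem cell factor that somatic tissues also use, −2.60 ± 0.58 (adjusted p = 0.0915).

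A list of 7 genes held other primordial germ cell genes and the gene of the Kit ligand. Of the 6 tested, 0 were called by limma, with 5 higher and 1 lower at an unadjusted p under 0.05. That count stands against 22.7% of all tested genes in either direction, and the 6 ratios ran from −1.92 to 3.43. The membrane protein genes Ifitm3 and Ifitm1 had 1.81 ± 0.29 and 1.46 ± 0.24 (limma SE, adjusted p of 0.0600 and 0.0618), and the receptor gene Kit −1.92 ± 0.35 (adjusted p = 0.0698). Later stages were hardly read. Only Crem of the 15 spermatid genes was bright enough to test (−0.08, limma adjusted p = 0.893), and the protamine and transition protein genes were not. Of 11 oocyte genes 3 were tested, Zp3, Nlrp5 and Gdf9, with ratios of 0.81, 0.67 and 0.31, 0 called by limma and 2 at an unadjusted p under 0.05. Of 10 genes of gonadal somatic cells on the array 4 were tested and 0 called by limma. At an unadjusted p under 0.05 there were 2 of the 4. Sox9 had −1.87, Inha −0.89, Dhh −0.54 and Hsd3b1 0.51. The oocyte and gonadal counts at an unadjusted p also stand against 22.7% of all tested genes, and rest on few genes.

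Factors known to silence germline promoters, or to demethylate them, were read by 22 tested genes, with a median ratio of 0.40 and 0 called by limma. At an unadjusted p under 0.05 there were 4, all positive, a smaller share than the 22.7% of all tested genes in either direction. The mean ratio lay above 0 for 16 of the 22, against 52.4% of all tested genes. The DNA methyltransferase genes Dnmt3b and Dnmt3l had 2.07 ± 0.30 and 2.21 ± 0.40 (limma SE, adjusted p of 0.0558 and 0.0677) and the dioxygenase gene Tet1 1.46 ± 0.36 (adjusted p = 0.108). E2f6 had −0.56, Pcgf6 0.63, Mga 0.62, Max 0.25, Dnmt1 −0.30 and Setdb1 0.62, with limma adjusted p from 0.227 to 0.649.

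Of the 13 pluripotency markers 4 rose (Nr0b1 by 3.92, Zfp42 by 3.17, Dppa2 by 2.79 and Dppa5a by 2.67 on the log2 scale) and 0 fell, with a median ratio of 2.17, and their log2 summed intensity ran from 17.51 to 18.66 in mutant samples and from 15.64 to 16.35 in wild type samples. Of 19 tested genes of differentiated embryoid body cells 1 fell, the embryonic globin gene Hbb-bh1 (−3.91 ± 0.34, limma SE, adjusted p = 0.0416), 0 rose, and the median was −0.90. The endoderm genes Afp and Gata6 had −2.23 ± 0.24 and −2.80 ± 0.40 (limma SE, adjusted p of 0.0502 and 0.0558). The log2 summed intensity of all 19 ran from 14.83 to 16.81 in mutant samples and from 16.72 to 18.24 in wild type samples. Klf4, a pluripotency factor that differentiated epithelia also express, was the 1 marker with a mean ratio below 0, at −1.14 ± 0.31 (limma SE, adjusted p = 0.122, unadjusted p = 0.0137), and Nanog had 0.08. The part of either marker list in the germline ratios was not tested.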

How the data were processed

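Total RNA was amplified and cRNA of both genotypes was hybridised together, per the labels' protocols. The deposited scanner files were written by Agilent Feature Extraction 10.7.3.1, per the file headers. They hold, as deposited, mean and local background intensity for both dyes, not normalized, processed intensity and other columns of flags, and give probe positions on mm9. A table of the authors holds deposited log2 ratios for each spot. Of tools, limma alone is named in the submitters' processing notes. A match to the scanner values gave the direction as mutant over wild type. Its column medians were −0.04, 0.01 and −0.01, and its centring is unknown. The columns of replicates 1 and 3 correlated best with each other's scanner file (r = 0.916 and 0.983), which leaves the mean ratio as it is.

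With R 4.3.3 and limma 3.58.1, mean signals were background-corrected by normexp (offset 50) and ratios normalized by loess within arrays, with the 1377 control spots given weight 0. On the array of replicate 3, 7 spots with a local background over 10 times the array median and a background outlier flag took that median in the background model and were left out, as were outlier-flagged spots. Spots were averaged per probe. Probes well above background on all 3 arrays of a genotype were kept (19141 of 39429), and the brightest probe stood for its gene. Of all probes 26761 were named through their accession (GRCm38.p6), and 50 of the 52 germline probes kept their symbol and the other 2 had no match. lmFit and eBayes tested ratios against 0, two-sided, with 2 residual and 3.04 prior degrees of freedom. No spot was saturated. Intensities per sample were taken after Aquantile scaling, and with few arrays precision is limited. Each array is its own pair of samples. The fit was also run on simulated ratios with independent errors of each gene's own spread, which does not check the calls made here.

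The genes and lists were chosen with earlier results of these data known. Called genes and the 12 with the largest ratios are given per sample, other tested genes by ratio (Sycp3 and Syce2 also per sample), paralogues by name, except some not reported here, and other lists by called genes and smallest p. Genes named beyond this rule (Prdm9, E2f6, Pcgf6, Mga, Max, Dnmt1, Setdb1, Dhh, Klf4 and Nanog), and these additions per sample, were chosen after their values were seen.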

Additional observations from a re-analysis of the deposited data

How the results depend on the processing

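Counts of called germline genes, 3 higher and 0 lower, and of all called genes, 46, changed with most settings, and 0 germline genes were called lower in any of the 14 alternatives. With every spot in the background model the counts were 0 and 0, with a median germline ratio of 1.02. In the authors' deposited values they were 0 and 0, with a median of 1.03. Processed signals gave 6 and 428, median centring 1 and 7 (4 higher and 3 lower, against 32 and 14), scaling between arrays 118 in all (68 higher and 50 lower), no filter on dim probes 0 and 2, the stricter filter 1 and 4, a dye term 28 and 4743, unpaired channels (no replicate block) 8 and 275, and the mean over probes 103 in all. With 1 replicate left out the germline count ran from 1 to 26, the count of all genes from 5 to 7300 and the median from 1.25 to 2.03. Fits with a dye term or without replicate 2 take their residual error from 2 arrays of 1 dye orientation. Median centring moved the median of all genes to −0.22, against 0.03. Of 455 values of single genes under alternatives, 374 stayed on their side of the threshold with the same sign, 56 passed it, 17 no longer did, and 8 changed sign. The 8 were Nanos3 with every spot in the background model (0.098), with a dye term (0.13), and with 1 replicate left out (from −0.36 to 0.17, 0.099 without replicate 1), Dnd1 with median centring (−0.11), in the authors' deposited values (−0.027) and with 1 replicate left out (from −0.30 without replicate 2 to 0.21), and Syce2 with median centring (−0.052). The causes were not tested. Signal over background limits Tex11, Slc25a31, Sycp1, Ldhc, Hormad2 and Tex12, which were dim on 1 or more wild type arrays.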
